A study of Mus musculus with 2 samples.

Results

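The Hoxb cluster on mouse chromosome 11 holds 10 protein-coding genes, Hoxb1 to Hoxb9 and the distant Hoxb13, and the Arid1b peaks around them are described here. A peak was taken when any part of it lay in a Hoxb gene or within 10 kb of one, and it was assigned to the Hoxb gene nearest to its summit. This gave 14 of the 8318 peaks of the list (0.168%, exact binomial 95% interval 0.092 to 0.282). The rule used positions and not peak heights. The list comes from ChIP-seq, in which DNA bound by Arid1b was pulled down with an antibody and sequenced, set against 1 input library without antibody. There were 2 libraries in all, so no value has a replicate check and no condition was compared. Both libraries came from primary dental mesenchyme cells in culture with 10% serum. The donors were wild-type mice of the strain C57BL/6, and the cells were taken at the apical end of the first lower molars between postnatal days 3.5 and 7.5. The labels do not say how many animals were pooled. Arid1b is a large DNA-binding subunit of BAF, a SWI/SNF complex that remodels chromatin. The series title and design text speak of Arid1a, and of Gli1-CreER mice with a conditional Arid1a allele. The labels of both samples instead give cells of wild-type mice and, for the ChIP, an antibody to Arid1b, and the labels are followed here.

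Hox genes encode homeodomain transcription factors that give cells their position along the head-to-tail axis, and their order on the chromosome matches the order of their expression domains, with Hoxb1 at the anterior end and Hoxb13 at the posterior end. SWI/SNF complexes use ATP to move nucleosomes and are known to oppose Polycomb repression, under which silent Hox clusters lie. Neural crest of the first pharyngeal arch, from which the mesenchyme of mandibular molars derives, is known as a Hox-negative population in the embryo. A peak measures Arid1b occupancy over input and not expression, so whether these cultured cells expressed any Hoxb gene was not measured.

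Start sites with strand were given for 3 of the 10 Hoxb genes in the RefSeq promoter table (build GRCm38.p6, the assembly that mm10 names), and the 250 bases before each are shown because they place a peak, or the absence of one, on sequence. All 3 are on the plus strand and are written 5′ to 3′. Capitals mark matches on either strand to the motifs CCAAT (bound by NF-Y), TATAAA (the TATA box), GGGCGG (the GC box of Sp factors), TGANTCA (of AP-1), TGATTGAT (of Hox with Pbx), TGACAG (of Meis), AGGTCA (of nuclear receptors), CACGTG (the E-box) and TGATNNAT (a loose form of the Hox and Pbx site), where N is any base. The stretches are chr11:96281655-96281904 for Hoxb8, chr11:96318017-96318266 for Hoxb4 and chr11:96365508-96365757 for Hoxb1.
Hoxb8: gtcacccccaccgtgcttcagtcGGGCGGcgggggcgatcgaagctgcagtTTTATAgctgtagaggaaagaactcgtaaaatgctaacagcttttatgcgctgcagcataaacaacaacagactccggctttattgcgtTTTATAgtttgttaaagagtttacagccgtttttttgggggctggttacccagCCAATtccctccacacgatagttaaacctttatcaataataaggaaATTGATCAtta
Hoxb4: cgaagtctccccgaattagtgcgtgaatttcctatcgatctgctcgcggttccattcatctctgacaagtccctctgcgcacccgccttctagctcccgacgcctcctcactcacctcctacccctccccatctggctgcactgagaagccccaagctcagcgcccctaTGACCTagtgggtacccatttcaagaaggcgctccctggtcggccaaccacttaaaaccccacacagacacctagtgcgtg
Hoxb1: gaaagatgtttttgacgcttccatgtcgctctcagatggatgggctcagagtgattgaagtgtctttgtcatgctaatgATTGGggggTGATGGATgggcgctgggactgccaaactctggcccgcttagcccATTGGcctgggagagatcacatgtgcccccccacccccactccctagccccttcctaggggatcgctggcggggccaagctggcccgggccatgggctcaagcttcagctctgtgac

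Arid1b peaks covered the given start sites of Hoxb8 and Hoxb4, and none lay near that of Hoxb1. The start site given for Hoxb8, at 96281905, lies inside the annotated gene, which begins at 96279401. No peak reached within 1 kb of that low-coordinate end. The Hoxb8 peak covered all 300 bases of the promoter window (250 before and 50 after the start site), and its summit lay 196 bp beyond the start site. The Hoxb4 peak covered 260 of the 300 bases, with its summit 13 bp before the start site. The nearest peak to the Hoxb1 start site ended 11059 bp away. Of all 21263 promoter windows of protein-coding genes in the table, 11.8% were overlapped by a peak.

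The 3 Hoxb windows held fewer CpG dinucleotides than most windows with a peak. Hoxb8 held 13 and Hoxb4 held 14, and Hoxb1, without a peak, held 10. The median was 27 (quartiles 20 and 35) over the 2518 coding windows with a peak and 10 (quartiles 3 and 22) over the 18745 without one. The Hoxb8 and Hoxb4 windows therefore lay below the lower quartile of windows with a peak.

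The motifs differed among the 3 windows. Hoxb8 held 1 match to CCAAT, 2 to the TATA box letters and 1 to GGGCGG, which 37.4%, 13.6% and 35.7% of all 32851 windows held at least once. Hoxb4 held 1 match to AGGTCA, part of the sites of nuclear receptors (16.3% of windows), and Hoxb1 held 2 CCAAT matches. The loose form TGATNNAT, which also takes in every TGATTGAT, matched once in Hoxb1, with its first base at -162 from the start site, and once in Hoxb8, at -11, against 8.85% of windows, and it was added after the sequences had been read. The exact form TGATTGAT (0.746% of windows) had no match in the 3 windows, nor had TGANTCA (7.81%), TGACAG (19.2%) or CACGTG (7.15%). These matches describe letters and not bound sites.

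Peaks clustered in a few places, as the map of the cluster shows. From Hoxb13 to Hoxb1 the genes span 173.9 kb, and the 96.9 kb from Hoxb9 to Hoxb1 held 11 summits. When every chromosome was divided into 100 kb tiles, 0.0703% of 27039 tiles held as many or more, 83.4% held none, and the fullest held 28. The tiles have a fixed grid, whereas the Hoxb stretch was set by its genes. The longest stretch without a peak, 72726 bp, ran from beside Hoxb13 to beside Hoxb9, and the next were 24754 bp (across Hoxb6 and Hoxb5 into Hoxb3) and 23526 bp (within Hoxb3).

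**Figure D1:**
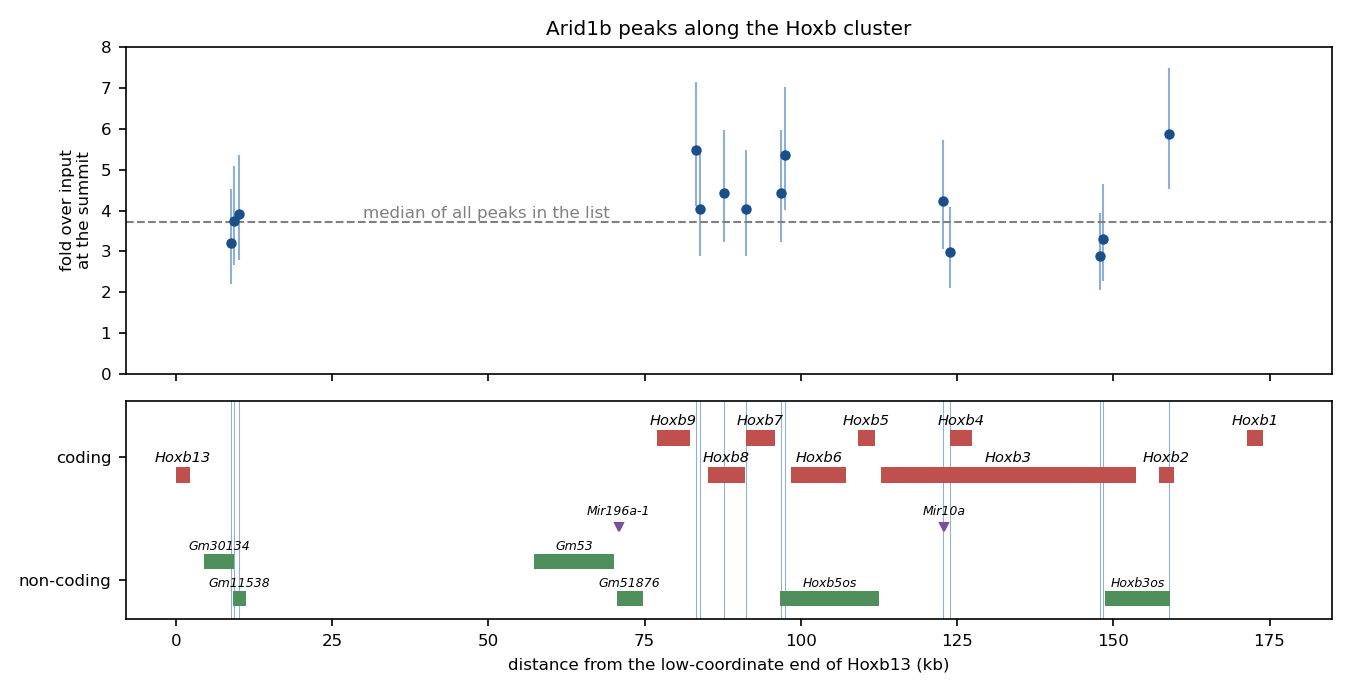
Upper panel, the authors' fold over input at the summit of the 14 peaks (points, with exact Poisson 95% intervals as bars) against the distance in kb from the low-coordinate end of Hoxb13. The dashed line is the median of all peaks in the list, 3.72. Lower panel, coding genes in red, long non-coding RNA genes in green and microRNA genes as purple triangles (not to scale), with thin vertical lines at the summits. The points lie in groups beside Hoxb13 and from Hoxb9 to Hoxb6. Over Hoxb3 they lie in separate pairs with 23526 bp between them, and at Hoxb2 there is 1 single peak.

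The median fold of the 14 peaks lay between the median and the upper quartile of all peaks in the list. The fold, which is the authors' value for the summit over the expected input level, had a median of 4.03 over the 14 peaks and ranged from 2.88 to 5.87, against a median of 3.72 (quartiles 3.30 and 4.32) over all 8318. Of the 14, 10 lay above that median, a larger share than the 49.1% of all peaks, and the difference was not tested. A fold of at least 5 was reached by 3 of the 14, against 10.2% of all peaks. Between 30 and 63 fragments lay at each summit (median 38, equal to that of all peaks). For 11 of the 14 the median of all peaks fell inside the 95% interval. For 3 the interval lay above it, those at Hoxb2, Hoxb9 and Hoxb6. The same count was not made over all 8318 peaks, so 3 of 14 cannot be called many or few. These intervals cover counting error of the ChIP fragments only.

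The strongest peak lay at Hoxb2, which acts in patterning of the hindbrain. It had a fold of 5.87 (exact Poisson 95% interval 4.53 to 7.48) from 63 fragments against an expected 9.91. At 2091 bp, chr11:96352609-96354699, it was the widest of the 14 and the only one of at least 1 kb, a width that 4.48% of all peaks reached. It covered 1412 bp of Hoxb2 and went on for 679 bp past the high-coordinate end of the gene. The antisense long non-coding RNA gene Hoxb3os starts under the same peak, with its start site 93 bp from the summit and all 300 bases of its promoter window covered, so the peak cannot be given to Hoxb2 or to Hoxb3os alone. Of the other 13 peaks, 10 had intervals that overlapped that of Hoxb2, and the upper ends of the remaining 3 were 3.94, 4.09 and 4.53, the last below it by less than the rounding.

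The stretch from Hoxb9 to Hoxb6 held 6 peaks within 14.8 kb, with folds from 4.03 to 5.47 and a median of 4.44. Hoxb9, which helps to pattern the thoracic ribs, had a peak at chr11:96277283-96277946 with a fold of 5.47 (4.11 to 7.15). Its summit lay 961 bp past the high-coordinate end of the gene, in no annotated gene. A second peak followed 662 bp on by summit, with a fold of 4.03 (2.88 to 5.49), and was nearest to Hoxb8 at 1183 bp.

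Inside Hoxb8, whose product is known for effects on myeloid progenitors and grooming behaviour, lay the peak over the start site at chr11:96281542-96282250, with 4.44 (3.23 to 5.97). The gap between Hoxb8 and Hoxb7 held a peak of 200 bp, the narrowest of the 14, at chr11:96285372-96285571 with a fold of 4.03 (2.88 to 5.49). It lay 47 bp from the end of Hoxb8 and 33 bp from that of Hoxb7, and it was the only peak within 1 kb of an end of 2 Hoxb genes. The gap between Hoxb7 and Hoxb6 held a pair with summits 623 bp apart. The one nearer Hoxb7 had a fold of 4.44 (3.23 to 5.97) and the one nearer Hoxb6, at chr11:96291676-96292034, had 5.37 (4.02 to 7.03). Both summits lay inside the long non-coding RNA gene Hoxb5os, and the first of these peaks began 65 bp from the low-coordinate end of that gene. The intervals of all 6 peaks overlapped.

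The 40830 bp of Hoxb3, an anterior gene, held 4 peaks with folds from 2.88 to 4.23 (median 3.14). The highest, at chr11:96316789-96317522 with 4.23 (3.05 to 5.73), contained all 110 bases of the Mir10a hairpin. The next, at chr11:96318057-96318448 with 2.98 (2.11 to 4.09), is the one over the Hoxb4 start site, and 182 of its bases lay in Hoxb4, a gene known for expanding blood stem cells. Hoxb4 lies wholly within the annotated span of Hoxb3, so the assignment of these 2 peaks depends on the rule: by the nearest gene end both belonged to Hoxb4, and by the gene nearest to the whole interval, with ties taken to the nearer end, only the second did. The other 2 lay 5803 and 5229 bp from the end of Hoxb3, with folds of 2.88 (2.05 to 3.94) and 3.30 (2.28 to 4.65). Both reached within 1 kb of the low-coordinate end of Hoxb3os. At the first of them the expected input level was 12.2, the highest of the 14 peaks.

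**Figure D2:**
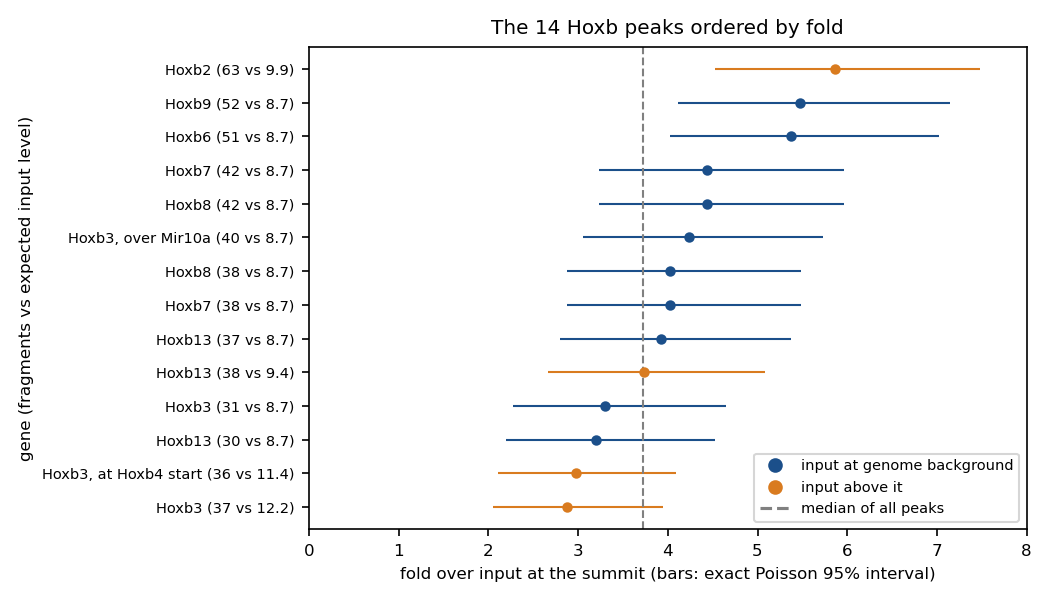
Fold over input at the summit (x axis, points) with exact Poisson 95% intervals (bars) for the 14 peaks, ordered by fold and named by assigned gene, with the summit fragments and the expected input level in brackets. Blue marks an expected level at the genome background of 8.68 and orange a higher local level. The bars of Hoxb2, Hoxb9 and Hoxb6 at the top lie wholly to the right of the dashed median of all peaks, and the lowest points, both orange, are peaks inside Hoxb3.

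Local input was seldom raised. The expected level was above the genome background in 4 of the 14 peaks, against 52.8% of all peaks. These 4 were the peaks at Hoxb2 and the Hoxb4 start site, 1 inside Hoxb3 and 1 beside Hoxb13, and they included the highest and the 2 lowest folds of the 14.

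Hoxb13, a posterior gene known for its role in prostate, had no peak at the gene itself. Its 3 assigned peaks lay within 1.46 kb of one another, the nearest 6486 bp from the gene, with folds of 3.20 (2.19 to 4.53), 3.73 (2.67 to 5.09) and 3.92 (2.79 to 5.37). They lay over the long non-coding RNA genes Gm30134 and Gm11538, which overlap each other. The middle summit lay 21, 5 and 177 bp from the 3 start sites that the table gives for Gm30134. Within 50 kb of Hoxb13, its low-coordinate side held 2 further peaks outside the 10 kb rule, the nearer 16826 bp from the gene, with folds of 3.30 and 2.89. The farthest of the peaks inside the rule lay 7569 bp from Hoxb13.

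Hoxb1 and Hoxb5 had no peak in the gene or within 10 kb. Hoxb1 sets the identity of a hindbrain segment, and the nearest peak, that of Hoxb2, ended 11047 bp from it, 1047 bp outside the window. Hoxb5, a gene active in the enteric nervous system, lay 10668 bp from the Mir10a peak. Past Hoxb1 the next peak was 378976 bp away, inside the neighbouring gene Skap1, with a fold of 3.75.

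Counted by gene, 6 of the 10 Hoxb genes (60.0%, exact binomial 95% interval 26.2 to 87.8) had a peak reaching within 1 kb of a gene end, against 22.2% of 21887 protein-coding genes. These were Hoxb2, Hoxb4, Hoxb6, Hoxb7, Hoxb8 and Hoxb9, through 7 distinct peaks. Hoxb8 counted through the peak in the gap to Hoxb7, which was assigned to Hoxb7. The peak over the Hoxb8 start site lay more than 1 kb from both ends of the gene and did not count. In the gene or within 10 kb, 8 of the 10 had a peak, against 31.7% of protein-coding genes. The genes are neighbours and share windows, so the interval is too narrow for them as independent genes, and no test was made. Summits lay inside a Hoxb gene for 6 of the 14 peaks, against 76.6% of all peaks with a summit inside a protein-coding gene. Another summit lay within 1 kb for 9 of the 14, against 34.5% of all peaks.

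The cluster holds 2 microRNA genes, and a peak covered one of them. The mature forms are shown with their seeds (bases 2 to 8) in capitals, since both families also have members in other Hox clusters. The sequences are from RefSeq, GRCm38.p6.
mmu-miR-10a-5p: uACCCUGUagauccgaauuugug
mmu-miR-10a-3p: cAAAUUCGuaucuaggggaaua
mmu-miR-196a-5p: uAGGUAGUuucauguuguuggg
mmu-miR-196a-1-3p: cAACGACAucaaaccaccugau
The Mir10a hairpin, at chr11:96317165-96317274, lay 83 bp from the summit of its peak and 993 bp before Hoxb4. The Mir196a-1 hairpin, at chr11:96265164-96265265 beyond Hoxb9, had its nearest peak 12018 bp away. Among all 1005 hairpins of the table, 3.58% were overlapped by a peak. The seed of miR-10a-5p is shared with miR-10b-5p, whose gene Mir10b had no peak over its hairpin. The seed of miR-196a-5p is shared by the products of Mir196a-1, Mir196a-2 and Mir196b, and of these 3 hairpins that of Mir196b was covered.

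The 4 Hox clusters differed in how many peaks they held under the same rule, as the plot of the clusters shows. Hoxb had 10.1 peaks per 100 kb of window (exact Poisson 95% interval 5.50 to 16.9), close to the 11.1 of Hoxd (5.92 to 19.0). Hoxa had 37 peaks, 29.5 per 100 kb (20.8 to 40.6), and Hoxc had 1 peak, 0.737 per 100 kb (0.0187 to 4.11). The Hoxb interval overlapped that of Hoxd and lay apart from those of Hoxa and Hoxc. These intervals treat neighbouring peaks as independent, and the differences were not tested. Peaks covered 5.15% of the Hoxb window, 5.73% of that of Hoxd, 16.6% of that of Hoxa and 0.276% of that of Hoxc. The folds overlapped, with medians of 4.03 in Hoxb, 4.03 in Hoxd and 3.80 in Hoxa. The highest peaks were 5.87 in Hoxb, 6.30 (4.83 to 8.08) at Hoxd3, 6.82 (5.28 to 8.66) nearest to Hoxa13 and 3.51 (2.45 to 4.89) at Hoxc12, and their intervals overlapped that of Hoxb2.

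**Figure D3:**
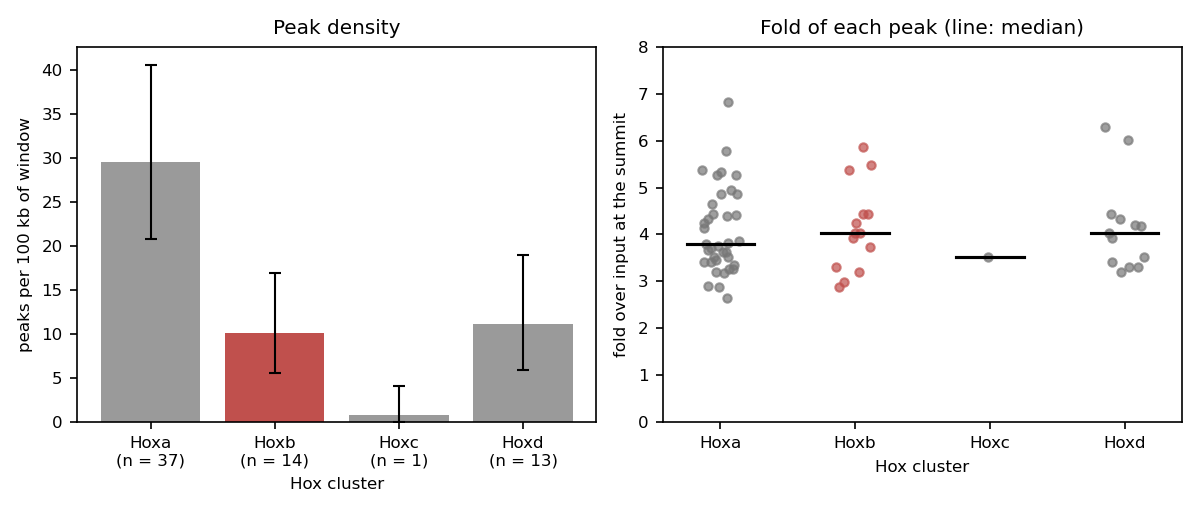
Left, peaks per 100 kb of window in the 4 Hox clusters (bars from 0, with exact Poisson 95% intervals and the number of peaks below each name). Right, the fold at the summit of every peak, with a line at each median. Hoxb, in red, has a density near that of Hoxd and below the 29.5 of Hoxa, and its folds lie within the range of those of Hoxa.

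Across paralogues, the genes of like position in the other clusters, Hoxb genes with a peak within 1 kb of a gene end were matched by their Hoxa counterparts. In groups 2, 4, 6, 7 and 9, which are the groups where Hoxb had such a peak and a Hoxa gene exists, Hoxa2 (3.17), Hoxa4 (5.37), Hoxa6 (3.63), Hoxa7 (5.26) and Hoxa9 (3.51) had one too. Of all 11 Hoxa genes 9 had one, so this match was not tested and is not particular to these groups. Neighbouring Hoxa genes can also share a peak. That of Hoxa6 is the same as that of Hoxa5, and that of Hoxa4 was assigned by its summit to Hoxa3. The intervals of the folds overlapped between Hoxb and Hoxa in groups 4, 6, 7 and 9. The value for Hoxb4 was that of the Mir10a peak, 4.23 (3.05 to 5.73), which was assigned by its summit to Hoxb3. At the peak over the Hoxb4 start site the interval was 2.11 to 4.09, which only just met the 4.02 to 7.03 of Hoxa4. In group 2 the intervals did not overlap, at 4.53 to 7.48 for Hoxb2 and 2.25 to 4.36 for Hoxa2. The Hoxb2 peak also lies over the start site of Hoxb3os, so it is not a value of Hoxb2 alone. No gene of group 1 had one, in Hoxb or in the 2 other clusters with such a gene. In group 8, Hoxb8 had one, the peak in the gap to Hoxb7, and neither Hoxc8 nor Hoxd8 did. In group 3, Hoxa3 (3.80) and Hoxd3 had one and Hoxb3 did not, its 4 peaks being interior, and in group 5, Hoxa5 (3.63) had one and Hoxb5 and Hoxc5 did not. In group 13, Hoxd13 (6.01, 4.61 to 7.71) had one, and Hoxa13, Hoxb13 and Hoxc13 did not.

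Genes that work with Hox proteins or set their expression were counted in the same way, with a peak within 1 kb of a gene end against the 22.2% of all protein-coding genes. Of 9 genes for the TALE homeodomain cofactors of Hox proteins, 6 had one, highest at Pknox1 (5.47, 4.11 to 7.15), Meis2 (5.06) and Meis1 (4.65). Of 13 Polycomb genes, which keep Hox clusters silent, 7 had one, led by Eed (5.13), Ezh2 (4.58) and Ring1 (4.25). Of 5 genes of the opposing Trithorax group, 3 had one: Kmt2a (5.41), Rbbp5 (4.75) and Wdr5 (3.41). Of 11 genes for retinoic acid handling and reception, through which anterior Hoxb genes are induced, 4 had one, with Aldh1a2 (6.09, 4.65 to 7.85), Rxra (3.54) and Rxrb (3.53) highest. None of the 3 Cdx genes had one. The lists are short and were not tested.

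As a check of the labelled cell type, 9 of 11 dental mesenchyme markers had a peak within 1 kb of an end, all but Lhx6 and Prrx1, and Lhx6 had none within 10 kb either. Of the markers of other cell types, 0 of 3 for endothelium and 0 of 3 for blood had one. The share over all protein-coding genes was 22.2%, at which a list of 3 can easily hold none. The blood marker Cd68 had a peak within 10 kb. Occupancy is not expression, so these counts describe the list and do not measure cell purity.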

How the data were processed

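The authors deposited 1 narrow peak list of 1 Arid1b ChIP library over 1 input library. The submitters' processing notes name mm10 as the build and, as tools, MACS2 2.1.1, Bowtie2 2.2.5, Picard and FastQC 0.11.8, with no parameters. Per peak, the deposited list holds the position, the summit, a score (not used further), -log10 values of p and q, and a linear ratio, the fold over input at that summit. Read totals were not used here. Summit fragments and expected input levels were recovered as whole pileups that solve fold = (pileup + 1) / (expected + 1) and the Poisson p-value, which assumes MACS2's formulas. This held within 0.001 in 100% of peaks (largest error 0.000162) and was tested on simulated data. An expected level within 0.001 of the lowest, 8.68, counted as genome background. Genes, promoters and microRNAs came from RefSeq tables of GRCm38.p6. Coordinates are 1-based. Summits were assigned to the nearest gene body, with ties taken to the nearest gene end. Python 3.11.15, pandas 2.3.3 and SciPy 1.17.1 were used. No tests were made, since each group has 1 library. All 10 Hoxb genes and all peaks of the rule are named. Also named are up to 3 genes of each cofactor or regulator list by fold, and the top gene of each other Hox cluster. Nearby non-coding and neighbouring coding genes are named where a peak overlaps them, besides Mir196a-1. Other paralogues, unlisted markers and microRNA relatives were named after their values were seen. The members and lists were chosen with earlier results of these data known. The hindbrain regulator and epithelium lists are not reported here.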

Additional observations from a re-analysis of the deposited data

How the results depend on the processing

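Stricter peak thresholds changed the counts. With -log10 q of at least 10 the Hoxb genes had 6 peaks in place of 14, and with a fold of at least 5 they had 3 peaks and 3 genes with a peak within 1 kb of an end, in place of 6. By the nearest gene end, Hoxb3 had 2 peaks in place of 4 and Hoxb4 had 2 in place of 0. By the peak interval, Hoxb4 had 1. The other 39 values stayed within 1.5 times the reported counts or within the counting interval of the median fold. They included stricter q-values and folds, windows from 500 bp to 50 kb, summits for intervals, merged intervals and peaks with input at background. The setting of -log10 q of at least 5 could change nothing, as the lowest value of the 14 peaks was 5.25. The tally of 39 is therefore not a measure of stability. The counting interval does not measure the spread of a median over peaks. The median fold was 4.91 with -log10 q of at least 10 and 5.47 with a fold of at least 5, in place of 4.03. No paired analysis was possible because each group has 1 library. Summits rested on 30 to 63 fragments, and how the folds depend on depth was not tested.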
